A study of Arabidopsis thaliana with 41 samples.

Results

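The 10 genes described here encode xyloglucan endotransglucosylase/hydrolases of Arabidopsis thaliana: XTH4 (AT2G06850), XTH5 (AT5G13870), XTH9 (AT4G03210), XTH15 (AT4G14130), XTH16 (AT3G23730), XTH22 (AT5G57560, also called TCH4), XTH24 (AT4G30270, also called MERI5B), XTH28 (AT1G14720), XTH30 (AT1G32170) and XTH31 (AT3G44990). They were chosen by gene identifier, as 10 of the 33 genes of the XTH family and 10 of the 33544 genes in the deposited table, and all 10 were found there. RNA was sequenced from developing embryos of 2 genotypes, wild type and a val1 mutant whose allele the labels do not name, at ages of 7, 8, 10, 12, 13, 15 and 17 days. There were 41 libraries in 14 groups: 2 for day 17 of the wild type, and 3 for any other age of either genotype. VAL1 encodes a B3-domain repressor that binds the RY element of DNA and is known for silencing the embryo program. Embryos were cut out of cooled seeds and washed to remove endosperm, with both genotypes dissected in parallel by 2 people. The design text lists 3 biological and 4 technical replicates, and 7 libraries were matched to their group alone. In 3 of them, those of val1 at day 17 (a, b and c here), the column headers carry replicate numbers that were not used, because without punctuation they read like those of day 7. The other 4, 1 per genotype at days 8 and 12, are headed as a replacement of replicate 1 and stand beside it. The groups of days 8 and 12 have no replicate 2 column here, although the sample titles list a replicate 2. A second deposited sheet has that column for both genotypes at day 8 and for wild type at day 12, so its libraries differ there. Whether a replacement comes from other embryos is not given in the sources used here, so n = 3 may stand for 2 biological samples in these groups, and p-values measure the spread between these libraries, part of which may be technical.

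Xyloglucan is the main polymer that coats and links cellulose in the primary wall of a dicot cell. An XTH enzyme cuts a xyloglucan chain and joins the cut end to another chain, or, in a few members, to water, so that the wall can be loosened, extended or rebuilt. In the embryo, these enzymes act on walls that first grow with dividing and expanding cells and are later kept through drying. Different XTH genes are known for different triggers: TCH4 for touch, cold and growth hormones, XTH15 and XTH16 for shade, and XTH31 for a hydrolase activity that it shares with a close relative.

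Read depth was estimated from the steps between low values, with the smallest value of each library assumed to be the same part of a read. The estimates ran from 8321306 to 51738641 reads a library with a median of 29731894, and read numbers below rest on them. The libraries of one group correlated at 0.968 to 0.991 across genes. VAL1 itself was lower in val1 than in wild type at every age, with an average log2 difference of -1.70 (SE 0.07; limma adjusted p = 4.3e-19). Of 10 endosperm markers, MINI3 was at 0 in all 41 libraries and PHE1, FIS2 and FWA reached at most 0.14 scaled FPKM in any, while the highest library held 222.0 of EPR1, 13.3 of SUC5, 5.99 of ALE1 and 3.93 of ZOU. Levels below are scaled FPKM, that is fragments per kilobase of transcript for a fixed number of mapped fragments, divided by a library factor. Log2 differences are on the scale of log2(scaled FPKM + 0.5), which understates the change of genes near or below 0.5. A gene is said to rise, fall or differ where its limma p, adjusted over the 18389 genes tested, was under 0.05. The samples are bulk embryos, so a change in the share of a cell type and a change of RNA per cell cannot be told apart.

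The members peaked at different ages, and the make-up of their sum turned over between day 7 and day 15. In wild type, XTH9 made up 78.8% of the summed level of the 10 genes at day 7 and 58.2% at day 8. From day 10 to day 13 XTH28 and XTH22 were the 2 highest in wild type, with shares of 31.2% and 26.4% at day 10 and of 53.6% and 39.4% at day 13. At day 15 XTH28 alone held 95.6% of the wild-type sum and at day 17 it held 95.1%. In val1 the same turnover was measured, from 78.5% XTH9 at day 7 to 94.6% XTH28 at day 17, but XTH22 ranked above XTH28 at days 10, 12 and 13 and still held 11.6% at day 15 against 2.22% in wild type.

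**Figure D1:**
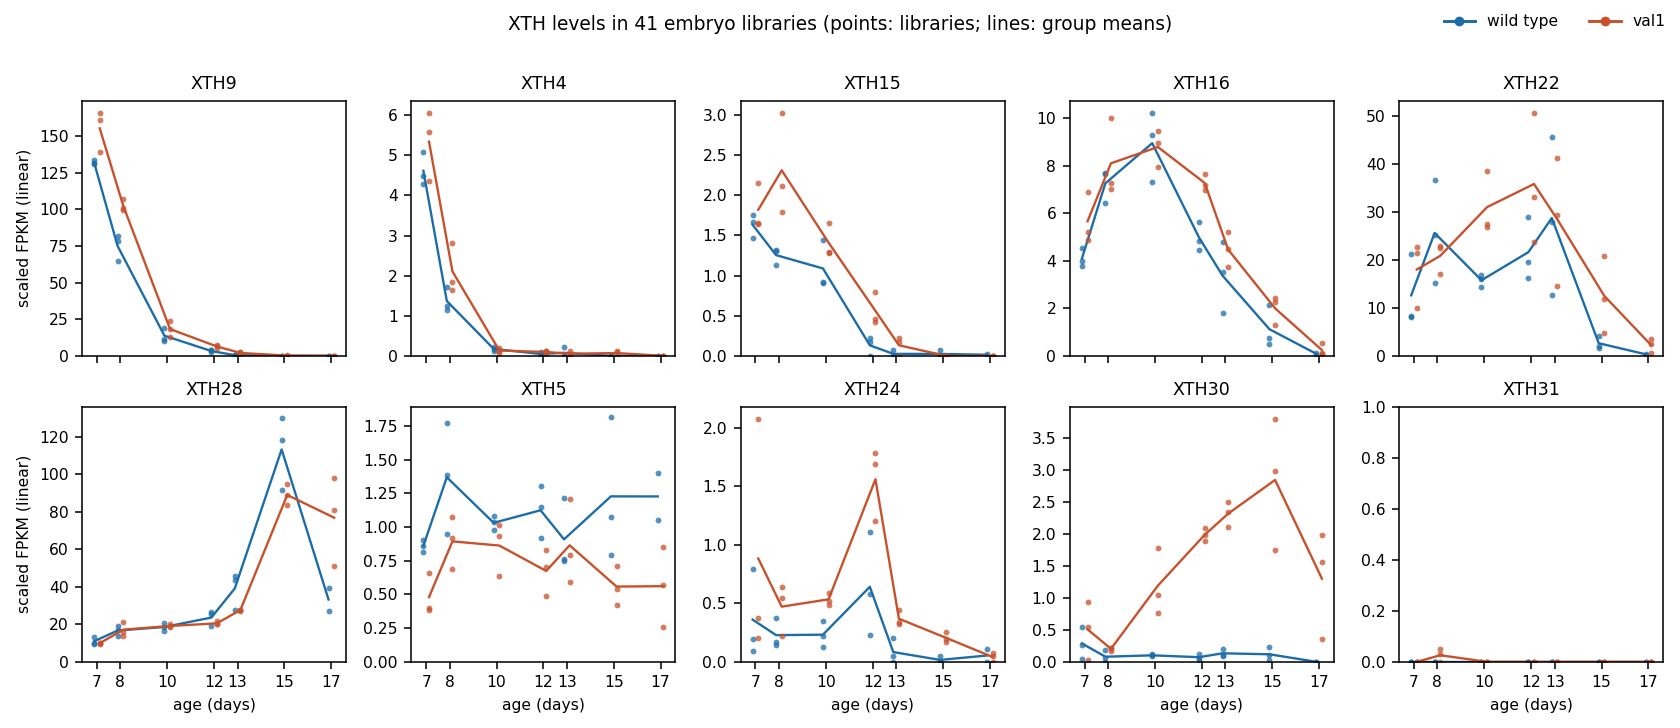
Scaled FPKM (linear axis, starting at 0, own range per gene) of the 10 XTH genes against age in days, with 1 point per library, lines through the group means, wild type in blue and val1 in orange. XTH9, XTH4 and XTH15 are high at days 7 and 8, XTH28 peaks at day 15, and XTH30 climbs in val1 while its wild-type libraries stay under 0.6.

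**Figure D2:**
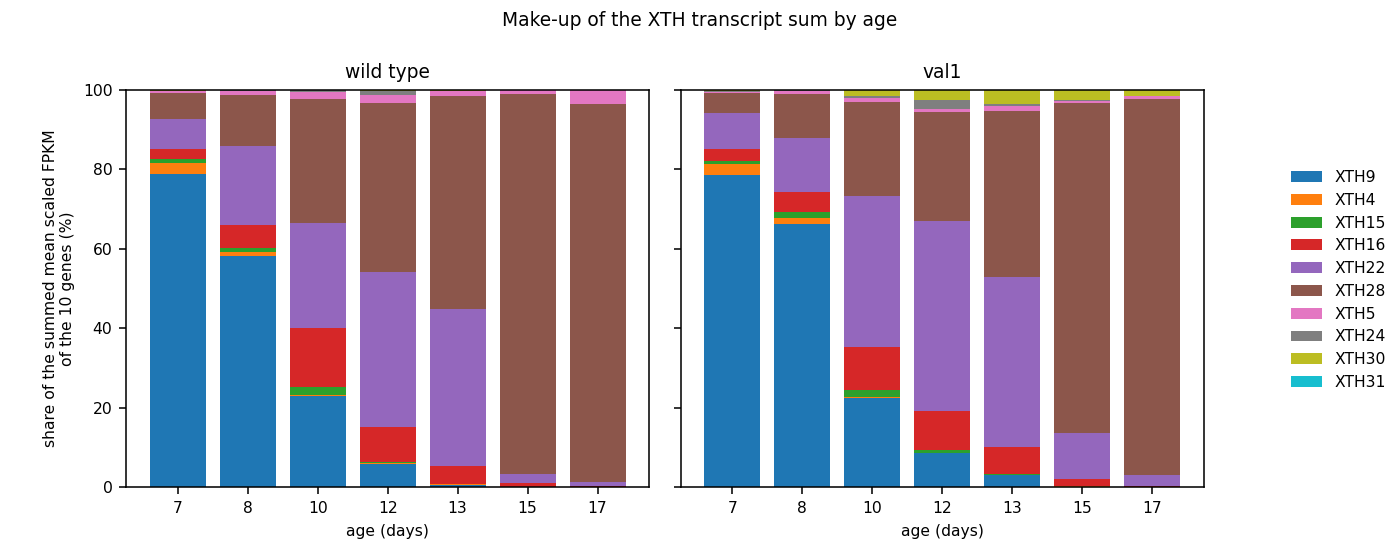
Share, in percent, of each gene in the summed mean scaled FPKM of the 10 genes at each age, for wild type on the left and val1 on the right. XTH9 fills 78.8% and 78.5% of the bars at day 7 and XTH28 fills 95.1% and 94.6% at day 17.

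XTH9, XTH4 and XTH15 were the early members. XTH9, which is known from the shoot apex and growing stems, stood at 133.3, 130.9 and 131.6 scaled FPKM in the 3 wild-type libraries of day 7 and at 139.1, 165.8 and 160.8 in those of val1. It then fell at each of the first 5 steps between neighbouring ages in wild type, reaching 3.28 ± 0.81 (SD, n = 3) at day 12 and 0 in both libraries of day 17. The fall from day 7 to day 12 was -5.15 in log2 units in wild type (SE 0.28; adjusted p = 4.9e-17) and -4.50 in val1 (SE 0.28; adjusted p = 1.7e-15). From day 7 to day 15 no wild-type library of an older age reached the level of a younger one, and the libraries of days 15 and 17 overlapped at 0.

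XTH4, one of the founding members of the family and known from elongating tissue, was much less abundant per length than XTH9 and fell within the first 3 ages. Its wild-type libraries held 5.07, 4.50 and 4.28 scaled FPKM at day 7, 1.24, 1.72 and 1.15 at day 8, and at most 0.232 at day 10. It fell at the steps from day 7 to 8 and from day 8 to 10 in both genotypes, and later ages did not differ beyond their spread. XTH15 declined later and from a lower level, from 1.63 ± 0.15 at day 7 to 1.09 ± 0.31 at day 10 and 0.131 ± 0.115 at day 12 in wild type (SD, n = 3 each). Its only step that passed the test in wild type was that from day 10 to 12, with a log2 change of -1.33 (SE 0.16; adjusted p = 1.9e-07), while in val1 it fell at the steps from day 8 to 10, 10 to 12 and 12 to 13.

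XTH16, XTH22 and XTH24 had their highest group means between day 8 and day 13. XTH16 rose from 4.09 ± 0.39 at day 7 to 7.25 ± 0.70 at day 8 in wild type (log2 0.76, SE 0.27; adjusted p = 0.048), peaked at 8.94 ± 1.48 at day 10 and fell to 0.0842 ± 0.0521 at day 17 (n = 2). XTH22 moved between 12.6 and 28.7 scaled FPKM in the wild-type means of day 7 to day 13, with libraries as far apart as 12.7 and 45.6 within day 13, so none of those steps passed the test. It then fell by 3.13 log2 units from day 13 to day 15 (adjusted p = 3.2e-06) and by 1.85 from day 15 to day 17 (adjusted p = 0.0093) in wild type. XTH24, known as a gene of meristems, was low throughout, and its highest means, 0.642 ± 0.444 in wild type and 1.56 ± 0.31 in val1, were both those of day 12.

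XTH28 was the late member, and in wild type it was the only one of the 10 with its highest mean at day 15. In wild type it stood at 10.2, 13.0 and 9.61 scaled FPKM at day 7, at 25.3, 19.2 and 26.3 at day 12 and at 130.0, 91.7 and 118.0 at day 15. The libraries of day 15 lay above those of every other age. The step from day 13 to 15 was 1.54 in log2 units in wild type (SE 0.20; adjusted p = 7.6e-08) and 1.67 in val1 (SE 0.20; adjusted p = 1.8e-08). XTH28 is assembled as 2 transcripts in the table, of 1348 and 1826 bases, whose values were summed.

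XTH5 and XTH31 stood at the other ends. XTH5, the only member tested whose level changed with age in neither genotype (adjusted p = 0.385 in wild type and 0.0955 in val1), kept wild-type means between 0.86 and 1.37 scaled FPKM over all 7 ages. XTH31, the member with hydrolase activity, was listed at 0 in 39 of the 41 libraries and held at most 2 reads in the others, so it did not pass the filter on low values and was not tested. The other 9 members passed. XTH30 passed only through val1 libraries, since its highest wild-type library held 0.950 FPKM. XTH24 passed only with val1 libraries counted, as its only wild-type library over 1 FPKM held 1.38, at day 7. Over the 7 ages, the F test called a change with age in 7 of the 9 in wild type and in 8 of the 9 in val1, against 95.3% and 95.7% of all genes tested.

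From day 7 to day 12 in wild type, 1 member rose and 3 fell, where 35.7% of all genes tested rose and 39.0% fell. From day 12 to day 17 none rose and 4 fell, where 33.7% rose and 39.3% fell. In val1 the counts were 3 and 3 for the first span, where 36.3% of all genes rose and 38.1% fell, and 1 and 5 for the second, where 33.4% and 41.3% did. Over the 6 steps between neighbouring ages, in order of age, 17.4%, 56.9%, 26.4%, 21.5%, 53.5% and 33.6% of all genes changed in wild type and 21.9%, 57.9%, 23.5%, 4.02%, 53.2% and 43.7% in val1. These directions are relative to the library scaling. On unscaled FPKM the median of all genes moved from -0.027 to -1.07 between day 7 and day 12 in wild type. The share of calls that were higher went from 47.8% to 15.4%. Over that span the value of XTH28 turned from 1.07 to -0.157 in wild type and from 1.01 to -0.118 in val1. From day 12 to day 17 in wild type the share of higher calls went from 46.2% to 47.2%. The difference between genotypes moved too, at day 17 from 62.1% of calls higher in val1 to 24.7%.

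Between genotypes, more members were higher in val1 than were lower. Averaged over the 7 ages, 6 of the 9 members tested were higher in val1 and 1 was lower, where 32.0% of all genes tested differed (19.0% higher and 13.1% lower). The median log2 difference was 0.356 over the 9 members and 0.015 over all genes. XTH30 and XTH24 are in both the count and the median, and passed the filter on low values only with val1 libraries counted. XTH30 had the largest average, 1.49 (SE 0.12; adjusted p = 2.3e-12). XTH22 followed with 0.78 (SE 0.19; adjusted p = 0.0017), XTH9 with 0.50 (SE 0.11; adjusted p = 0.00043), XTH24 with 0.48 (SE 0.12; adjusted p = 0.002), XTH16 with 0.36 (SE 0.10; adjusted p = 0.0077) and XTH15 with 0.28 (SE 0.06; adjusted p = 0.00079). XTH5 was lower by an average of -0.43 (SE 0.08; adjusted p = 9.1e-05). XTH4 and XTH28 did not pass the test, with intervals of 0.00 to 0.24 and of -0.13 to 0.17, and XTH4 passed without replicate 3 of wild type at day 13 (0.146, adjusted p = 0.0451). On the second deposited sheet the average of XTH5 was -0.204 and no longer passed (adjusted p = 0.51).

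Age by age, 13 of the 63 differences tested passed, 11 of them higher in val1. None passed at day 7, where 3.31% of all genes did, and 1 passed at day 8 (3.38%) and 1 at day 10 (5.42%). The numbers were 3 at day 12 (8.52%), 2 at day 13 (17.7%), 3 at day 15 (17.5%) and 3 at day 17 (15.3%). XTH30, which passed the filter on low values only through val1 libraries, gave 5 of the 11 calls higher in val1. When each age was tested with its own libraries alone, 6 of the 63 passed: XTH30 at days 10, 12, 13 and 15, XTH22 at day 10 (0.94, adjusted p = 0.0366) and XTH24 at day 15 (0.45, adjusted p = 0.0336). The other 9 of the 13 calls did not pass in that test.

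**Figure D3:**
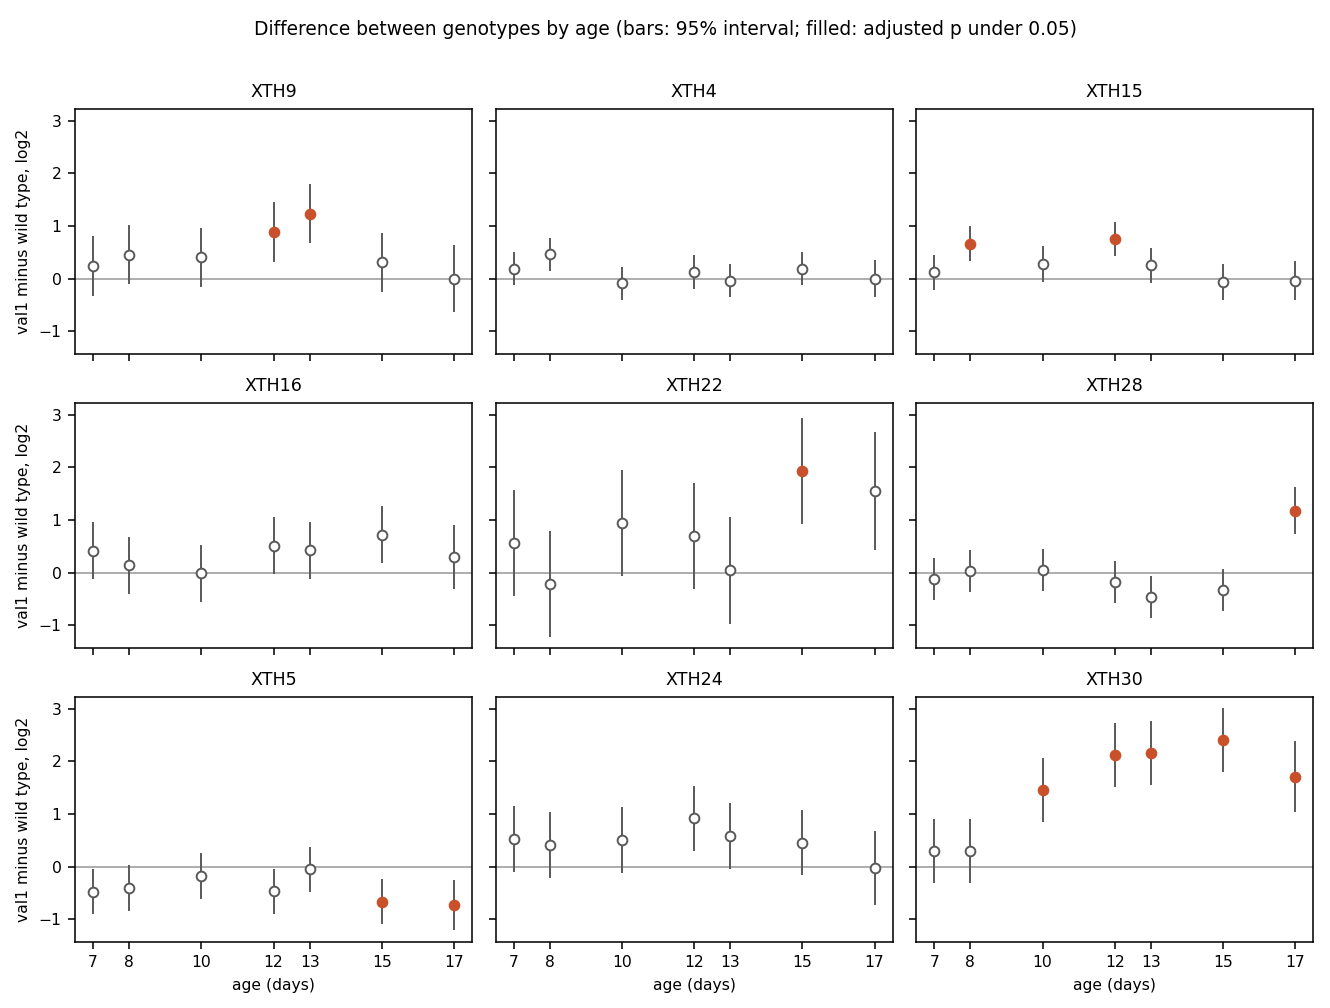
Difference between val1 and wild type in log2(scaled FPKM + 0.5) at each age in days for the 9 members tested, with 95% intervals, filled where the adjusted p is under 0.05. XTH30 is filled from day 10 to day 17, with differences of 1.45 to 2.40, and XTH28 at day 17 only, with 1.17.

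XTH30, a member of the same subgroup of the family as XTH28 that has been studied for salt tolerance, was near 0 in wild-type embryos and higher in val1 from day 10 on. It was tested only because of its val1 libraries, since no wild-type library reached 1 FPKM. Wild-type libraries held 0.0991, 0.116 and 0.0883 scaled FPKM at day 10, and val1 libraries 1.04, 1.78 and 0.756. At day 12 the wild-type values were 0.0360, 0.0635 and 0.118 and the val1 values 1.98, 2.09 and 1.88. At day 15 they were 0.105, 0.0222 and 0.227 against 2.99, 1.74 and 3.8. Every val1 library of days 10 to 17 lay above every wild-type library of the same age, as did 11.6%, 14.2%, 17.6%, 14.6% and 22.9% of all genes at the 5 ages in order. At days 7 and 8, where XTH30 overlapped, 7.05% and 7.6% of all genes had every val1 library above. The ratio of the group means was 11.8 at day 10, 27.4 at day 12, 17.4 at day 13 and 24.2 at day 15. At day 17 XTH30 was listed at 0 in both wild-type libraries and stood at 1.98, 0.358 and 1.56 in val1.

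The log2 differences of XTH30 were 1.45 at day 10 (adjusted p = 0.0013), 2.12 at day 12 (3.9e-06), 2.15 at day 13 (2e-06), 2.40 at day 15 (3.7e-07) and 1.71 at day 17 (0.00038), with SEs of 0.30 to 0.33. At days 7 and 8 the difference was 0.29 with intervals of -0.32 to 0.90. Of all genes tested, 294 or 1.6% were called higher in val1 at 5 or more of the 7 ages, as XTH30 was. XTH30 is among the genes tested only through its val1 libraries, so this share does not measure how unusual its calls are. Its counts are low: the median library held 2.95 reads of XTH30 in wild type and 51.0 in val1, with a highest wild-type library of 23.7 reads, at day 7. Day 7 is also where its libraries scattered most, from 0.0477 to 0.549 in wild type and from 0.0354 to 0.940 in val1. On the second deposited sheet, the calls at day 10 (log2 1.24, adjusted p = 0.222) and day 17 (0.514, adjusted p = 0.865) were lost and those at days 12, 13 and 15 held.

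The course of XTH30 with age differed between genotypes. In wild type no step passed the test and the F test over ages gave an adjusted p of 0.69. In val1 it rose between day 8 and day 10 by a log2 change of 1.22 (SE 0.30; adjusted p = 0.00082) and fell between day 15 and day 17 by 0.98 (adjusted p = 0.0082). The change from day 7 to day 12 was 1.83 larger in val1 than in wild type (SE 0.42; adjusted p = 0.01), a test that 2.06% of all genes passed. Without replicate 2 of val1 at day 7, which held the lowest value of its group, the difference was 1.42 and did not pass (adjusted p = 0.0537), and on unscaled FPKM it was 1.56 (adjusted p = 0.0795).

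**Figure D4:**
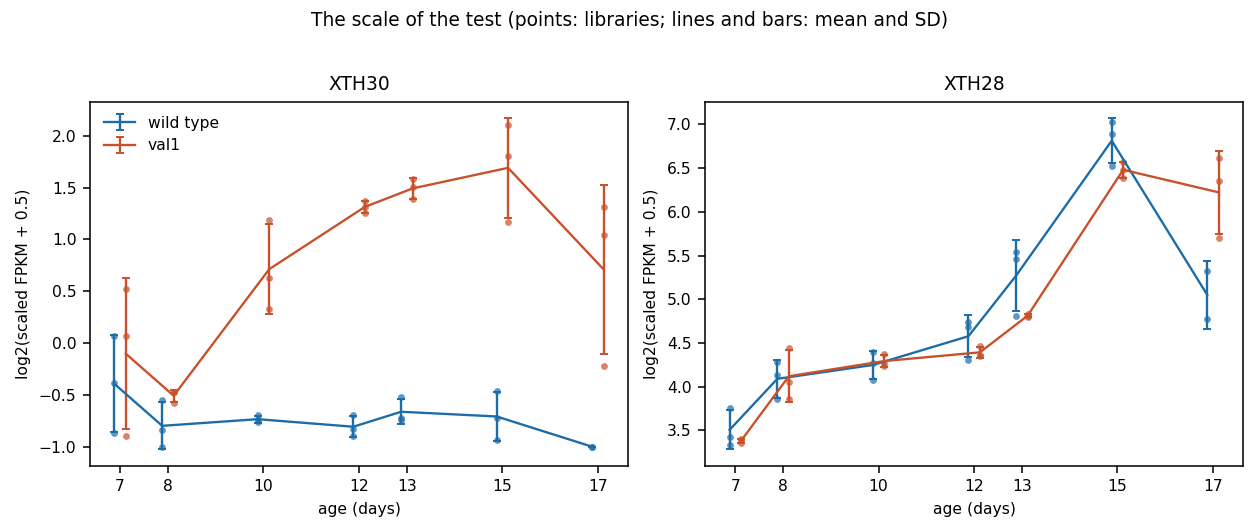
Values of XTH30 on the left and XTH28 on the right on the scale of the test, log2(scaled FPKM + 0.5), against age in days, with 1 point per library and lines and bars for the mean and SD of each group. XTH30 separates by genotype from day 10 on, and XTH28 at day 17 after a shared rise to day 15.

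The 250 bases before the gene start of XTH30 are shown because VAL1 is known to bind the RY element, whose core CATGCA was searched on both strands of this window and of that of XTH16. The window of XTH30 lies on the plus strand at chr1:11575070-11575319 of the RefSeq assembly TAIR10.1 and holds neither this core, nor the G-box CACGTG, nor CGTGCG.
XTH30: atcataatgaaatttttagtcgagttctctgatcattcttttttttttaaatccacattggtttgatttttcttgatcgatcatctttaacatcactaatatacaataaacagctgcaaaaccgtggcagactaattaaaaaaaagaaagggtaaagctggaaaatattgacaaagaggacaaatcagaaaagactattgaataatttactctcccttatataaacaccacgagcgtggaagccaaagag
Of 27443 windows of protein-coding genes of the same length, 8.43% held the RY core, 6.49% the G-box and 1.57% CGTGCG.

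The window of XTH16 is shown because it holds the RY core, while neither the G-box nor CGTGCG is present in it. Both windows are printed 5′ to 3′ on the strand of the gene, with the core or its complement TGCATG in capitals. That of XTH16 is on the plus strand at chr3:8549787-8550036 and has the core once, starting 133 bases before the gene start.
XTH16: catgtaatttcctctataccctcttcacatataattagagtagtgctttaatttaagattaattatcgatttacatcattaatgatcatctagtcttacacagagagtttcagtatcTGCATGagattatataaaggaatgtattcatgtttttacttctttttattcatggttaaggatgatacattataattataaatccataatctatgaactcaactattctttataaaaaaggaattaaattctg
A match is a description of the letters and no measure of binding.

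XTH24 was higher in val1 on average over ages, from a very low base. At day 10 the wild-type libraries held 0.221, 0.125 and 0.351 scaled FPKM and those of val1 0.592, 0.523 and 0.488. At day 12 the values were 0.232, 0.580 and 1.11 against 1.70, 1.2 and 1.79. The groups did not overlap at days 10, 12, 13 and 15, where 11.6%, 14.2%, 17.6% and 14.6% of all genes had every val1 library above. In the fit over all libraries no single age passed the test, with the closest at day 12 (log2 0.91, SE 0.31; adjusted p = 0.0596). That value crossed the threshold with a pseudocount of 1 (0.669, adjusted p = 0.0421) and on the second sheet (2.43, adjusted p = 0.000878). It also did so without the unnumbered wild-type library of day 12 (1.2) or without replicate 1 of wild type or replicate 1 or 2 of val1 at day 7 (0.91 each). With same-numbered libraries as a block within each age, days 12 (1.12, adjusted p = 0.00595) and 13 (0.588, adjusted p = 0.0308) passed. So did 10.3% and 28.7% of all genes, and this block was chosen after seeing the data. The median library held 5.35 reads in wild type and 12.5 in val1, and XTH24 passed the filter on low values only with val1 libraries counted.

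XTH16 was higher in val1 by small amounts. The groups did not overlap at day 7, with 3.99, 4.52 and 3.76 scaled FPKM in wild type against 5.22, 6.89 and 4.86 in val1. Nor did they at day 12, with 4.46, 5.62 and 4.83 against 7.64, 7.19 and 6.97. Of all genes, 7.05% and 14.2% had every val1 library above at these ages. At day 10, the age of its peak in both genotypes, the means were 8.94 ± 1.48 and 8.78 ± 0.75 (SD, n = 3 each), with an interval of the log2 difference of -0.56 to 0.53. In the fit over all libraries no single age passed the test, and the nearest was day 15, with 0.72 (SE 0.27; adjusted p = 0.0599). That value passed without replicate 3 of wild type (1.16) or replicate 1 of val1 (0.971) at day 15, and without replicate 1 (0.744) or 3 (0.743) of wild type at day 13 or library a of val1 at day 17 (0.745). It also passed with same-numbered libraries as a block within each age (0.722, adjusted p = 0.027), as did 28.5% of all genes at day 15.

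XTH9 and XTH15 were higher in val1 at 2 ages each. XTH9 at day 12 stood at 2.35, 3.81 and 3.68 scaled FPKM in wild type and at 5.31, 6.59 and 7.28 in val1. The groups did not overlap at that age, where 14.2% of all genes had every val1 library above. At day 13 the values were 0.563, 0.150 and 0.670 against 2.94, 0.547 and 2.42, where the lowest val1 library lay within the wild-type range. The log2 differences were 0.88 at day 12 (SE 0.28; adjusted p = 0.0426) and 1.24 at day 13 (SE 0.28; adjusted p = 0.0017). On the second sheet the value of day 13 was 1.33 and did not pass (adjusted p = 0.0831), and in the 34 numbered libraries that of day 12 was 0.859 (adjusted p = 0.259). The call of day 12 was lost without any one of 8 libraries, with values of 0.686 without replicate 1 and 0.956 without the unnumbered library of wild type at day 12, 0.854 without replicate 3 and 0.774 without the unnumbered library of val1 at day 12, 0.874 and 0.873 without replicates 1 and 2 of wild type at day 15, and 0.874 without library a or c of val1 at day 17.

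XTH15 differed at day 8, with 1.14, 1.32 and 1.30 scaled FPKM in wild type against 2.12, 1.79 and 3.03 in val1, and at day 12, with 0.220, 0 and 0.172 against 0.465, 0.416 and 0.797. Neither pair of groups overlapped, and 7.6% and 14.2% of all genes had every val1 library above at these ages. The log2 differences were 0.66 (SE 0.16; adjusted p = 0.0136) and 0.75 (SE 0.16; adjusted p = 0.0019). On the second sheet they were 1.02 (adjusted p = 0.18) and 0.478 (adjusted p = 0.595), and with a pseudocount of 0.1 the value of day 8 was 0.803 (adjusted p = 0.442), so both calls were lost on that sheet and that of day 8 with that pseudocount. In the 34 numbered libraries the value of day 8 was 0.512 (adjusted p = 0.297) and did not pass, and that of day 12 passed. With same-numbered libraries as a block within each age, that of day 8 was 0.503 (adjusted p = 0.118) and did not pass. That of day 12 passed with this block (0.648, adjusted p = 0.0195). At day 8 the value was 0.606 without replicate 1 of wild type and 0.481 without the unnumbered val1 library, and neither passed (adjusted p = 0.0817 and 0.169). Its change from day 12 to day 17 was -1.07 in val1 and -0.28 in wild type, a difference of -0.787 (SE 0.24; adjusted p = 0.0336) where 10.9% of all genes passed. Wild type held only 0 to 5 reads at day 12, and the means of day 17 were 0.0136 in wild type and 0 in val1. The call for this difference was lost with a pseudocount of 1 (-0.48, adjusted p = 0.0715) and on the second sheet (-0.478, adjusted p = 0.745). It was lost without wild-type replicate 3 of day 12 (-0.627), or replicate 1 (-0.828) or 2 (-0.751) of day 17. The same held without the unnumbered val1 library of day 12 (-0.631), or library a (-0.793) or c (-0.793) of val1 at day 17. XTH4, the third early member, showed no difference that passed at any age, and its largest was 0.47 at day 8 (interval 0.15 to 0.78; adjusted p = 0.114), which passed without replicate 3 of wild type (0.594) or replicate 1 of val1 (0.59) at that age.

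XTH22 was higher in val1 at day 15. It stood at 2.11, 1.57 and 4.21 scaled FPKM in wild type and at 11.9, 4.79 and 20.7 in val1, without overlap, and the ratio of the means was 4.74. At day 17 the values were 0.224 and 0.427 against 3.43, 2.54 and 0.657, again without overlap, with a ratio of 6.80. Of all genes, 14.6% at day 15 and 22.9% at day 17 had every val1 library above. The log2 differences were 1.92 at day 15 (SE 0.49; adjusted p = 0.0057) and 1.55 at day 17 (SE 0.55; adjusted p = 0.0537). The first did not pass with the libraries of day 15 alone (adjusted p = 0.168). It passed with same-numbered libraries as a block within each age (1.92, adjusted p = 6.4e-05), as did 28.5% of all genes at day 15. It was 1.46 and did not pass without replicate 3 of val1 at day 15 (adjusted p = 0.084), and the second passed without library c of val1 at day 17 (2.11, adjusted p = 0.0137), without any one of 10 libraries of days 7, 13 and 15 (1.55 to 1.57), with a pseudocount of 0.1 (2.22, adjusted p = 0.00866) and on the second sheet (2.29, adjusted p = 0.0215). The fall from day 12 to day 17 was -4.71 in wild type and -3.85 in val1, and the difference of 0.86 had an interval of -0.65 to 2.37.

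Because XTH22 is the touch-induced TCH4, it was set beside 10 tested genes of touch and handling, among them the calmodulin-like genes CML24, CML23 and CML12 and the early stress regulators ZAT12, ZAT10, WRKY40 and CBF2. Within groups, XTH22 and the median of these genes lay on the same side of their group mean in 34 of the 41 libraries, 16 of 20 in wild type and 18 of 21 in val1. The deviations of a gene within a group sum to 0, so the libraries are not independent. No such count was made for other genes, so it does not set touch and handling genes apart. At day 15, 3 of the 10 were higher in val1 and none lower, where 11.6% of all genes were higher and 5.98% lower: CML24 by 2.06 (SE 0.48; adjusted p = 0.0023), ZAT12 by 1.63 (SE 0.53; adjusted p = 0.029) and WRKY40 by 1.5 (SE 0.32; adjusted p = 0.00097). At day 17, CML24 (2.31) and WRKY40 (1.22) were higher. The summed level of the 11 listed genes ran from 190.8 to 266.9 scaled FPKM in wild type and from 252.3 to 335.9 in val1 at day 15, and from 113.3 to 161.0 and 208.7 to 327.2 at day 17. Their part in the difference of XTH22 was not tested. The assembly also holds a transcript of 222 bases on the other strand of the XTH22 gene, which was not summed, and whether the libraries keep strand is not given in the sources used here, so reads of the pair cannot be told apart.

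**Figure D5:**
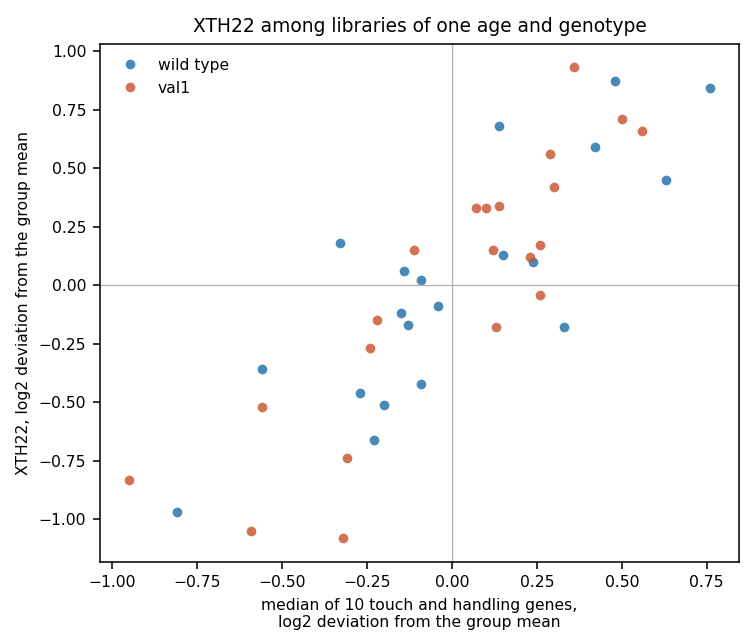
Deviation of XTH22 from the mean of its group in each of the 41 libraries, in log2 units on the vertical axis, against the median deviation of 10 touch and handling genes on the horizontal axis, with wild type in blue and val1 in orange. The points run from lower left to upper right, and 34 of the 41 lie on the same side of 0 on both axes. Libraries of one group share its mean, and no such count was made for other genes.

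XTH28 fell in wild type between day 15 and day 17, a step that did not pass the test in val1. From the peak of day 15, the wild-type libraries went to 26.9 and 39.6 scaled FPKM at day 17, and the val1 libraries from 94.6, 83.5 and 88.8 to 81.2, 51.3 and 98.0. The lowest val1 library of day 17 lay above the higher wild-type library, as for 22.9% of all genes at that age. The step from day 15 to 17 was -1.76 in wild type (SE 0.22; adjusted p = 1.4e-07) and -0.26 in val1 (interval -0.65 to 0.14). With the libraries of that age alone, the difference between genotypes at day 17 did not pass (adjusted p = 0.173). In the fit over all libraries it was 1.17 (SE 0.22; adjusted p = 0.00021), after values of -0.46 at day 13 and -0.33 at day 15 that did not pass, although the value of day 13 did without replicate 3 of wild type at that age (-0.703, adjusted p = 0.013). The value of day 13 also passed with same-numbered libraries as a block within each age (-0.459, adjusted p = 0.0305), as did 28.7% of all genes at that age. The change from day 12 to day 17 was 1.36 larger in val1 (SE 0.29; adjusted p = 0.0022).

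Other cell wall genes and embryo regulators moved at day 17 too, where 9.49% of all genes tested were higher in val1 and 5.79% lower. That balance rests on the library scaling: on unscaled FPKM the share of calls that were higher went from 62.1% to 24.7%. Values of the lists below without scaling are not given here. Of 9 tested genes of cellulose synthesis, 7 were higher and none lower, led by the cellulose synthase subunits CESA2 (log2 0.98, SE 0.23; adjusted p = 0.0032) and CESA5 (0.94, SE 0.30; adjusted p = 0.029) and CESA1 (0.78, SE 0.27; adjusted p = 0.041). Of 13 tested genes of xyloglucan synthesis, 5 were higher and none lower, led by the xylosyltransferase XXT1 (1.31, SE 0.25; adjusted p = 0.00025) and the glucan synthases CSLC12 (1.12, SE 0.21; adjusted p = 0.00021) and CSLC5 (0.77, SE 0.18; adjusted p = 0.0028). Of 10 tested expansins, which loosen walls without cutting them, 3 were higher and none lower: EXPA15 (3.17), EXPA1 (2.73) and EXPA5 (2.08). Of 7 embryo markers, 3 were higher and none lower, the B3 factors FUS3 (1.51, SE 0.18; adjusted p = 1.8e-07) and ABI3 (0.65, SE 0.15; adjusted p = 0.0028) and L1L (1.48, SE 0.44; adjusted p = 0.02). The summed level of the 7, nearly all of it the storage protein CRU3 and the oleosin OLEO1, ran from 112895 to 130141 scaled FPKM in wild type and from 165839 to 326027 in val1, where CRU3 (adjusted p = 0.358) and OLEO1 (adjusted p = 0.497) did not pass. The part of these in the difference of XTH28 was not tested.

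XTH5 was the one member lower in val1. At day 15 its libraries held 0.791, 1.08 and 1.82 scaled FPKM in wild type and 0.712, 0.544 and 0.419 in val1, and at day 17 they held 1.05 and 1.40 against 0.854, 0.571 and 0.259. All val1 libraries lay below all wild-type libraries at 4 of the 7 ages, days 7, 12, 15 and 17, where 7.52%, 11.9%, 11.1% and 20.1% of all genes did so. The log2 differences were -0.67 at day 15 (SE 0.21; adjusted p = 0.024) and -0.735 at day 17 (SE 0.24; adjusted p = 0.03). On the second sheet they were -0.542 (adjusted p = 0.666) and 0 (adjusted p = 1), and without scaling that of day 15 was -0.516 (adjusted p = 0.214), none of which passed. The call of day 15 was lost without replicate 2 (-0.708) or 3 (-0.428) of wild type or replicate 3 of val1 (-0.577), and that of day 17 without replicate 1 (-0.884) or 2 (-0.589) of wild type or library c of val1 (-0.507).

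A test of whether the difference between genotypes varied with age passed for 3 of the 9 members, against 16.7% of all genes: XTH30 (adjusted p = 0.00046), XTH28 (0.00279) and XTH15 (0.0442). For the other 6 it did not pass, with adjusted p from 0.183 for XTH22 to 0.804 for XTH24. With 1 library left out at a time, 1 to 4 members passed, and the lowest number came without replicate 1 of wild type at day 17.

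The rest of the family set the members in proportion. Of 23 other XTH genes, 17 were at or under 1 FPKM in every library and 6 were tested. The highest XTH transcript of the embryo was none of the 10 but XTH25, whose gene lies 565 bases from that of XTH22 on chromosome 5 and on the same strand. XTH25 rose from 0.0529 ± 0.0081 scaled FPKM at day 7 to 82.5 ± 17.8 at day 12 and 6359 ± 651 at day 15 in wild type (SD, n = 3). In val1 it was already at 2.00 ± 0.30 at day 7 and 5.70 ± 1.38 at day 8, with log2 differences of 2.17 (adjusted p = 2e-05) and 3.00 (adjusted p = 4.5e-08). XTH12 and XTH13, within 10000 bases of XTH22, and XTH18, within 10000 bases of XTH24, were among those under the filter.

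Averaged over ages, 4 of these 6 were higher in val1 and none lower, where 19.0% of all genes tested were higher and 13.1% lower. The 4 were XTH19, a neighbour of XTH24 on chromosome 4 (1.02, SE 0.10; adjusted p = 2.2e-10), XTH25 (0.97, SE 0.12; adjusted p = 1.3e-07), XTH8 (0.74, SE 0.10; adjusted p = 1.1e-06) and XTH23 (0.67, SE 0.15; adjusted p = 0.00056). The difference of XTH25 varied with age (F test, adjusted p = 1.6e-07). It was -0.70 at day 13 and -0.63 at day 15, and neither value passed. At day 7 XTH19 stood at 2.32 ± 0.20 scaled FPKM in wild type and 11.2 ± 4.2 in val1 (SD, n = 3 each). XTH11 and XTH27 were abundant at some age, with highest group means of 159.8 and 23.7 scaled FPKM, and their average differences were 0.21 and 0.02 and did not pass.

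In the genes that make or trim xyloglucan, the average over ages was mixed. The shares of all genes tested were 19.0% higher and 13.1% lower, here and for the lists that follow. Of 13 tested synthesis genes 2 were higher in val1, the fucosyltransferase FUT1 (0.21) and XXT1 (0.26), and 3 were lower, the galactosyltransferase XLT2 (-0.36), CSLC12 (-0.19) and CSLC8 (-0.17). Of 4 trimming enzymes, 2 were higher, the glucosidase BGLC1 (0.57) and the fucosidase AXY8 (0.36). Of 10 expansins 4 were higher, led by EXPA5 (0.73), EXPA4 (0.67) and EXPA15 (0.54), and EXPA20 was lower (-0.64). Of 9 cellulose genes, the glucanase KOR1 (0.47) and CSI1 (0.15) were higher and CESA9 was lower (-0.23). The medians of these lists were -0.008, 0.278, 0.118 and 0.14, beside 0.015 for all genes.

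Markers of the tissues around the embryo were measured beside these results. The summed level of 12 seed coat markers ran from 10.9 to 60.7 scaled FPKM in wild type and from 17.9 to 58.1 in val1 at day 7, and from 2.09 to 2.87 and 3.5 to 5.38 at day 15. The sums at day 10 ran from 18.4 to 19.7 in wild type and 21.1 to 21.8 in val1. At day 13 they were 7.43 to 11.5 and 14.5 to 19.1, and at day 17 1.46 to 1.75 and 2.55 to 3.18. The sums overlapped at days 8 and 12. Of the 9 tested seed coat genes, 2 were higher in val1 on average, where 19.0% of all genes were, MUM4 (0.59) and MUM2 (0.21). TT2 and TT16 were at 0 in 36 and 39 libraries. MUM4 and GL2 were above 0 in every library and reached 13.7 and 4.79 scaled FPKM, and DP1 reached 27.4 but was at 0 in 25 libraries. The summed level of 10 endosperm markers ran from 78.8 to 222.2 in wild type and from 51.6 to 66.2 in val1 at day 15, nearly all of it EPR1, and none of its 4 tested genes differed on average. The part of seed coat or endosperm RNA in the differences of the members was not tested.

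Over the 14 group means, Pearson's r was 0.965 between XTH9 and XTH15, 0.924 between XTH16 and XTH22 and -0.88 between XTH9 and XTH28. XTH5 reached at most 0.023 with another member and XTH30 at most 0.364, and r between XTH5 and XTH30 was -0.684. Outside the 10 genes, the profiles most like XTH9 were those of MAD2 (r = 0.9972), a spindle checkpoint gene, EXL4 (0.9964) and AT5G16250 (0.9961), but 13.9% of all genes tested had an r over 0.9 with XTH9. The most like XTH28 were AT5G12270 (0.9884), the ion antiporter NHX4 (0.984) and ACD1 (0.9761), an enzyme of chlorophyll breakdown, with 1.96% of genes over 0.9. The most like XTH30 were AT1G07175 (0.9712), the glycolipid transfer gene GLTP2 (0.9711) and the glutathione transferase GSTU23 (0.9678), and only 0.141% of genes were over 0.9. XTH5 and XTH24 had no gene over 0.9. These group means share libraries, ages and scaling, so the correlations are descriptions.

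The authors' deposited table of genotype differences, which gives 1 test over all ages per assembled transcript, lists 7 transcripts of 6 of these genes, and 1 transcript on the other strand of XTH22. For XTH30 the authors' deposited table gives log2 differences of 0.954, 1.95, 3.27, 4.58, 4.05, 4.62 and 5.99 at the 7 ages in order, with an adjusted p of 3.79e-09 for all ages together. These were not put on the scale used above, which understates the change of genes near or below 0.5 scaled FPKM. The largest is that of day 17, where XTH30 was at 0 in both wild-type libraries. Both transcripts of XTH28 in the authors' deposited table have their largest difference at day 17, 1.22 and 1.18. XTH4, XTH16, XTH22 itself and XTH31 have no entry among its 7826 transcripts.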

How the data were processed

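RNA-seq was made from dissected embryos of wild type and val1 at 7 ages, as paired reads of 75 bases, per the labels' protocols. TopHat2, StringTie and the TAIR10 build are named in the submitters' processing notes, without versions. The deposited workbook holds, per assembled transcript, the authors' FPKM values in 41 libraries, a second sheet of values the authors headed as counts, which are not whole numbers and were treated as signal (53.1% to 76.4% of its values a library are 0), and the authors' table of 7826 transcripts with log2 differences, log2 mean expression, an F score and p-values. Of 53988 transcripts, the 52881 with class code = or j were summed to 33544 genes. The FPKM were divided by a library factor, the unweighted mean of log ratios to a reference library trimmed by 30% of ratios and 5% of means. Genes with at least 1 FPKM in 2 libraries (18389) were tested with limma 3.58.1 (R 4.3.3) on log2(scaled FPKM + 0.5), with a mean for each of 14 groups, 27 residual degrees of freedom, a trended prior and Benjamini-Hochberg adjustment. These are not counts, so no count model was used; all low values fell on steps of a twelfth of a read (tolerance 0.02 of a step), which gave relative depth and approximate reads. The number of libraries limits the precision of every difference. The test was tried on simulated data with known changes.

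Intervals cover 95% and come from the same fit. Alternatives were no scaling, median-of-ratios scaling, pseudocounts of 0.1 and 1, no filter, a filter of 5 FPKM, class code = alone, the second sheet, a replicate block, the 2 groups compared alone and each library left out in turn. The 34 numbered and 7 unnumbered libraries all entered the main test. Named genes were all 10 members, other XTH genes tested that were called on average or reached a group mean of 10 scaled FPKM, up to 3 called genes of a list in each direction, and the 3 genes most like each member; of the likeness genes only those of XTH9, XTH28 and XTH30 are printed. The members and lists were chosen with earlier results of these data known. Promoter windows were read from the RefSeq assembly TAIR10.1, since the tables used give no coordinates, and those of 2 members are described; the other windows are not reported here.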

Additional observations from a re-analysis of the deposited data

Results flagged for a closer look

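For 3 members the change with age differed between genotypes by a test of the difference itself. XTH30 gained 1.83 more log2 units from day 7 to day 12 in val1 than in wild type, and its genotype difference varied with age (adjusted p = 0.00046). XTH28 changed by 1.36 more from day 12 to day 17 in val1, and its genotype difference varied with age (adjusted p = 0.00279). XTH15 changed by -0.79 more from day 12 to day 17 in val1, and its genotype difference varied with age (adjusted p = 0.0442). Its wild-type libraries already held at most 5 reads at day 12. The call for that span was lost with a pseudocount of 1 (-0.48) and on the second sheet (-0.478).

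A transcript on the other strand of the XTH22 gene, outside the summed values, had a mean of 1.14 FPKM in val1 at day 15, with libraries from 0.850 to 1.36, and of 0.0457 in wild type, with libraries from 0 to 0.137. XTH22 itself was higher in val1 at that age, and reads of the pair cannot be told apart.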

How the results depend on the processing

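Of the recomputed member values, 62 no longer passed, 65 newly passed and 5 turned in sign while passing in the main or the changed fit. The other 6256 kept their side of the threshold. Among these, values that passed in neither fit could change sign, as XTH24 at day 7 did (0.521 to -0.053). All 5 turned without library scaling: from day 7 to day 12, XTH5 went to -0.602 in wild type, XTH16 to -0.894 in wild type and -0.743 in val1, and XTH28 to -0.157 and -0.118. That setting left 0 members whose change from day 7 to day 12 differed between genotypes, and moved the share of day 17 calls higher in val1 from 62.1% to 24.7% and of calls for the genotype difference in the later span from 53.1% to 18.9%. A pseudocount of 1 left 1 member with a genotype difference in the change from day 12 to day 17. A filter of 5 FPKM left 5 members tested, and so 4 calls at single ages, 3 on average, 1 for the interaction, 5 for age in val1, 3 from day 7 to day 12 in val1, and 0 and 1 for the genotype difference in the earlier and later span. The second sheet gave 2 members changed from day 12 to day 17 in wild type and 0 for the genotype difference in the earlier span. Testing only the 2 groups compared gave 6 calls at single ages, from 4 residual degrees of freedom or fewer an age.

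Leaving out each library in turn gave 12 to 16 calls at single ages, 7 to 8 on average, 1 to 4 for the interaction, 6 to 7 for age in wild type and 8 to 9 in val1. The spans gave 4 to 5 in wild type for each, 5 to 6 and 6 to 7 in val1, 0 to 1 and 1 to 2 for their genotype differences, and 35 to 38 over steps. The earlier genotype difference went to 0 without replicate 2 of val1 at day 7.

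Same-numbered libraries of one age had deviations with r from 0.075 to 0.604, over 0.1 in 15 of 16 pairs, and libraries of other numbers from -0.653 to 0.351, below 0 in 27 of 32. Each of the 16 wild-type libraries correlated best with its own number, a hint from the data that a number marks something shared. The labels do not say so and 1 pair missed the limit of 0.1, so the numbers were not taken as pairs. With the replicate number as a block, on the 34 numbered libraries and without day 17 of val1, there were 8 calls at single ages and 1 for the interaction, and the same libraries with no block gave 8 and 1. A block within each age, chosen after seeing the data, gave 14, 7 on average and 3. In the main fit 3.31%, 3.38%, 5.42%, 8.52%, 17.7% and 17.5% of all genes passed at days 7 to 15 in order, and 32.0% on average. The block within each age called 7.04%, 4.24%, 8.91%, 10.3%, 28.7% and 28.5%, and 39.1% on average. It newly passed XTH24 at days 12 (1.12, adjusted p = 0.00595) and 13 (0.588, adjusted p = 0.0308), XTH16 at day 15 (0.722, adjusted p = 0.027), XTH22 at day 10 (0.937, adjusted p = 0.0378) and XTH28 at day 13 (-0.459, adjusted p = 0.0305), and lost XTH15 at day 8 (0.503, adjusted p = 0.118). The block over all ages lost XTH15 at day 12 (0.658, adjusted p = 0.0531). The later genotype difference could not be fitted with a block, since the val1 libraries of day 17 were matched without their numbers. XTH30, XTH15 and XTH24 rest on few reads in most libraries, which limits their differences.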
